A study of Mus musculus with 6 samples.

Results

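The genes described here are 10 genes of neutrophil secondary and tertiary granules, calprotectin and related secreted proteins: Camp, Ngp, Ltf, Lcn2, Chil3, S100a8, S100a9, Mmp8, Mmp9 and Hp. They were taken by name, as the probe sets whose only gene symbol in the platform annotation is one of these 10, which gave 10 of the 18193 genes and 11 of the 45037 probe sets that are not controls. Mmp9 had 2 probe sets and each other gene had 1. The brightest one stands for its gene. The samples were LSK cells, sorted from lineage-depleted mouse marrow for Sca-1 and c-Kit, among which blood stem cells and multipotent progenitors are found. The 3 Ercc1-deficient arrays came from mice with 1 knockout and 1 truncated Ercc1 allele (-/d), and the 3 Ercc1-proficient arrays from their litter mates, which were +/+ in litters 1 and 2 and +/d in litter 3. All were F1 mice of C57BL/6 and FVB/n, aged 22 weeks in litter 1 and 20 weeks in litters 2 and 3. No Cre or tissue restriction is named in the labels, and the control of litter 3 carried a truncated allele as well. RNA was amplified linearly in 2 rounds before hybridisation to Affymetrix Mouse Genome 430 2.0 arrays, and the comparison asked how expression differs when Ercc1, a subunit of a repair endonuclease, is reduced.

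Neutrophils fill their granules in sequence as they mature. Primary granule genes such as Mpo and Elane are switched on in promyelocytes, secondary granule genes such as Ltf, Lcn2, Camp and Ngp in myelocytes, and tertiary granule genes such as Mmp9 later still. In mouse, the transcription factor C/EBP epsilon is required for secondary granule genes. S100a8 and S100a9 form calprotectin, which fills the cytosol of neutrophils and monocytes. LSK cells sit upstream of these stages.

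The members lie in a few places of the genome. In the RefSeq gene table of assembly GRCm38.p6, S100a8 and S100a9 are neighbours on chromosome 3 with 0 protein-coding genes between them. Camp, Ngp and Ltf follow each other on chromosome 9, with 8 protein-coding genes between Camp and Ngp and 20 between Ngp and Ltf. Mmp8 is also on chromosome 9, Chil3 on chromosome 3, Lcn2 and Mmp9 on chromosome 2 and Hp on chromosome 8.

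Promoter windows of 250 bases before and 50 bases after the annotated start were available for 8 of the 10 members in RefSeq's GRCm38.p6 annotation. Of these, 4 are shown because their genes were measured on the same arrays with differences in one direction, and because they range from 0 to several matches to the C/EBP consensus. Capitals mark the C/EBP consensus TTNNGNAA and the PU.1 core GAGGAA, each on both strands, and the TATA box TATAAA on the sense strand. They are reference sequence, and the FVB/n alleles of these F1 mice are not shown. The windows are, for Camp, chr9:109849407-109849706 on the minus strand, for Ngp chr9:110419558-110419857 and for Ltf chr9:111019042-111019341 on the plus strand, and for S100a8 chr3:90668821-90669120 on the plus strand, each written 5′ to 3′.
Camp: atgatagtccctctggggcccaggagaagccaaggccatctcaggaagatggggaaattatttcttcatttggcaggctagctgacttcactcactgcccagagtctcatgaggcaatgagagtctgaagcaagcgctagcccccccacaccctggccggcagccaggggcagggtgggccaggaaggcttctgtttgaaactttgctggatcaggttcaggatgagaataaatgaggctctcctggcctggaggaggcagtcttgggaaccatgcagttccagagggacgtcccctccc
Ngp: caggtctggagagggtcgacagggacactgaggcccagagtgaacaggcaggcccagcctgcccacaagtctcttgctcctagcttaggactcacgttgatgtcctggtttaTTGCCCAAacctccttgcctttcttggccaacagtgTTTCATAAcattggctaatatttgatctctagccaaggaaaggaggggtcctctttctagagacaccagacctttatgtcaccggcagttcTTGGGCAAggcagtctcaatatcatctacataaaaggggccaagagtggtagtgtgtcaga
Ltf: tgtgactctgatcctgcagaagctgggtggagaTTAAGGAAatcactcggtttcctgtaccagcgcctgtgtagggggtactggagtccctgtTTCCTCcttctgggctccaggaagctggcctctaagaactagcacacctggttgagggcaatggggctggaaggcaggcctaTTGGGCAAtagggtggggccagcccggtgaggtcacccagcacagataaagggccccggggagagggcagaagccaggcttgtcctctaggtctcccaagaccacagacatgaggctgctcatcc
S100a8: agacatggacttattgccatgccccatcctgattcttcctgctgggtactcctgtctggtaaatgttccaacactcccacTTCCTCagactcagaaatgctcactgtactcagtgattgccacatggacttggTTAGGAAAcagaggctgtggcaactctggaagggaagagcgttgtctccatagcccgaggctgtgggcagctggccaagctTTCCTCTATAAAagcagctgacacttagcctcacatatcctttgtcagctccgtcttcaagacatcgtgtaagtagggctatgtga
Ngp and Ltf hold the same C/EBP-type octamer, TTGGGCAA, at 11 bases before the start of Ngp and at 75 bases before the start of Ltf. The window of Ngp has 3 such matches in all and that of Ltf has 2. In S100a8, a PU.1 core on the minus strand begins 36 bases before the start and the TATA box follows it directly. The Camp window has 0 matches to all 3 motifs, which says only that these letters are not in these 300 bases. Over all 32851 promoter windows of this length, 40.7% held the C/EBP consensus, 28.3% the PU.1 core and 8.32% the TATA box. Among the 8 member windows, 7, 4 and 3 held them, in that order of motifs. No occupancy was measured here, so a match is a description of the sequence.

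The deposited values are MAS5 signals on a linear scale with a floor of 30, at which between 52.3% and 58.6% of the probe sets of an array lay. Precision is limited by the number of arrays, 3 a group. Ercc1 was measured at 79.9, 34.5 and 44.9 in deficient cells of litters 1, 2 and 3, against 128, 244 and 176 in proficient cells, with the lower signal in deficient cells of each litter. The position of this probe set relative to the altered exons was not examined here. Of the markers of LSK cells that were measured, Kit stood at a mean of 104 ± 17.7 in deficient arrays, against 168 ± 56.0 in proficient arrays (SD, n = 3 each). Cd34 stood at 932 ± 455 in deficient arrays, against 1224 ± 198 in proficient arrays. Signals of different probe sets do not rank the amounts of their transcripts, so levels are compared between arrays. A place on an array is given only to show where a signal lies on its scale. Summed signals of a list include values at the floor and depend most on its brightest probe sets. In sorted bulk samples, more cells of a type and more RNA per cell cannot be told apart.

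Of the 10 members, 9 passed the filter on low values, a mean log2(signal + 30) at or above the median of all probe sets, and Mmp8 and the dimmer Mmp9 probe set did not. Of these 9, 6 rose in deficient cells in limma with litter as a block, at an adjusted p under 0.05, where 0.293% of the 22519 probe sets tested were called higher, 0.493% lower and 0.786% in either direction. The 6 were Camp, Ngp, Chil3, S100a8, S100a9 and Hp. Mmp9 passed that filter only through its deficient arrays, so its sign was fixed by the filter. The other 8 had a positive log2 difference, against 46.0% of the probe sets tested. Of these 8, all but Lcn2 had the higher signal in the deficient litter mate 3 times out of 3, against 11.3%. The median log2 difference was 2.60 over the 9 and 2.66 without Mmp9, beside -0.03 over all probe sets tested. By the size of the difference, Chil3, S100a9, Camp, Ngp and S100a8 held places 1 to 5 among 22519, Lcn2 place 7, Hp place 16, Ltf place 20 and Mmp9 place 1102. The calls were lost without the litter term, where limma called 0 members. There 5, with Mmp9 among them, had an unadjusted p under 0.05, as did 2.59% of all probe sets tested. With litter as a random term, limma called 0 members and 26 of all probe sets. Without litter 1 or without litter 2, it called 0 members and 0 of all probe sets. Without litter 3, it called 3 members (Camp, S100a8 and S100a9) and 5 of all probe sets. These fits without a litter kept the filter set on all 6 arrays. Fits with the filter set again gave other counts, listed at the end with their limits.

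**Figure D1:**
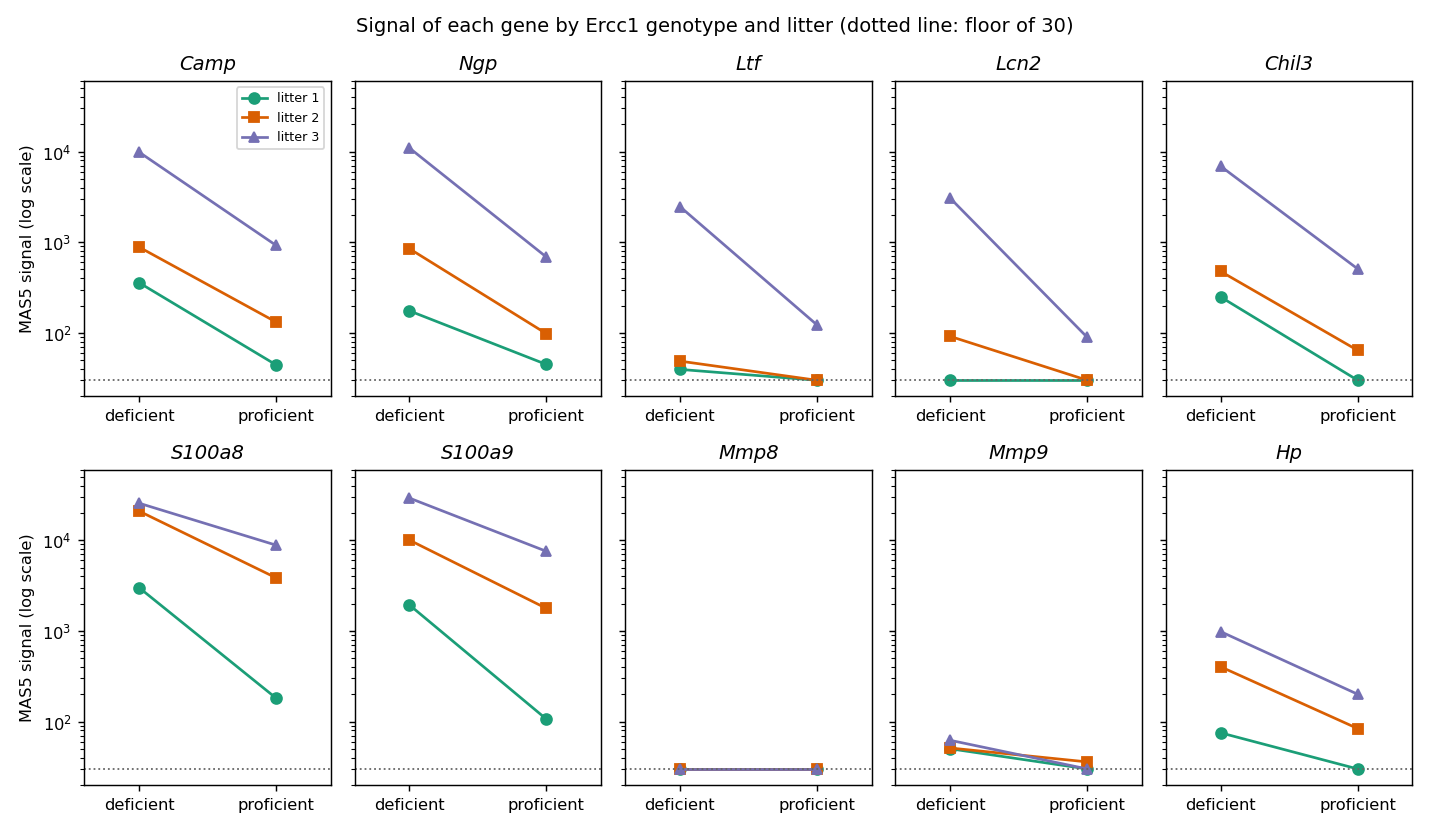
MAS5 signal (log scale) of each gene in the Ercc1-deficient array (left) and the Ercc1-proficient array (right) of each litter, with lines joining litter mates and a dotted line at the floor of 30. For Camp, Ngp, Chil3, S100a8, S100a9 and Hp every line descends to the proficient litter mate, and the litters lie at different heights.

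Among the antimicrobial proteins of the secondary granule, Camp and Ngp rose. Camp encodes the cathelicidin precursor, whose released peptide kills bacteria. It measured 358, 884 and 9874 in deficient cells of litters 1, 2 and 3, against 44.4, 132 and 924 in proficient cells. The deficient array was 8.06, 6.71 and 10.7 times its litter mate, so the ratio was similar while the level differed widely between litters. Camp had a log2 difference of 2.75 (standard error 0.24, limma with litter as a block, adjusted p = 2.77e-06). The 2 groups overlapped, since the proficient array of litter 3, at 924, lay above the deficient arrays of litters 1 and 2.

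Ngp encodes neutrophilic granule protein, a relative of the cathelicidins. Its signals were 175, 848 and 10946 in deficient cells of litters 1, 2 and 3, against 44.8, 97.9 and 686 in proficient cells. The ratios between litter mates were 3.90, 8.66 and 15.96, lowest in litter 1 and highest in litter 3. Its log2 difference came to 2.72 (standard error 0.31, limma with litter as a block, adjusted p = 6.2e-05). Proficient cells of litter 3 again lay above deficient cells of litter 1.

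Ltf and Lcn2 encode proteins that withhold iron from microbes: lactoferrin binds iron itself and lipocalin 2 binds bacterial siderophores. Ltf measured 39.5, 48.8 and 2477 in deficient cells, against 30, 30 and 123 in proficient cells, with the values of 30 at the floor. Lcn2 measured 30, 91.4 and 3055 in deficient cells, against 30, 30 and 89.3 in proficient cells. Both genes were highest by far in the deficient array of litter 3, and the proficient array of that litter was the highest of its group. The ratio of Ltf was at least 1.32 in litter 1, at least 1.63 in litter 2 and 20.2 in litter 3. For Lcn2 it was at least 3.05 in litter 2 and 34.2 in litter 3, and both litter mates of litter 1 were at the floor.

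Neither gene passed the test. Ltf had a log2 difference of 1.55 (standard error 0.45, limma, adjusted p = 0.134), and 0.30 without litter 3. For Lcn2 it was 1.90 (standard error 0.50, limma, adjusted p = 0.0857), and 0.51 without litter 3. Median centring of the arrays brought both under the threshold (limma, adjusted p = 0.0154 for Ltf and 0.00447 for Lcn2), and for Lcn2 so did log2(signal) without a pseudocount (0.0464) and a stricter filter (0.0308).

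Chil3 is a chitinase-like lectin also known as Ym1 and made by neutrophil precursors and macrophages. With the pseudocount of 30 it had the largest log2 difference of all probe sets tested. With a pseudocount of 100 its difference was 2.25, below S100a9 (2.56), S100a8 (2.47), Camp (2.34) and Ngp (2.33). Chil3 measured 249, 476 and 6890 in deficient cells, against 30, 64.1 and 508 in proficient cells, where 30 is the floor. The ratios were at least 8.29 in litter 1, 7.43 in litter 2 and 13.6 in litter 3. It had a log2 difference of 2.78 (standard error 0.26, limma with litter as a block, adjusted p = 6.34e-06). As with Camp, proficient cells of litter 3 exceeded the deficient cells of the other litters.

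The calprotectin genes rose as well. S100a8 measured 3005, 20987 and 25656 in deficient cells of litters 1, 2 and 3, against 182, 3855 and 8839 in proficient cells. S100a9 measured 1933, 10039 and 29204 in deficient cells, against 106, 1772 and 7550 in proficient cells. The litter mates differed most in litter 1, with ratios of 16.5 for S100a8 and 18.2 for S100a9, and least in litter 3, with 2.90 and 3.87. The deficient signals of litter 3 were at the top of the scale: S100a9 was the brightest of the 45037 probe sets on that array and S100a8 held place 3, and the part of saturation in their smaller ratios was not tested. Camp and Ngp, the other members above the floor on all 6 arrays, had their highest ratio in litter 3. With 1 pair of arrays a litter, these differences between litters were not tested. S100a8 had a log2 difference of 2.60 (standard error 0.32, limma with litter as a block, adjusted p = 0.000137). S100a9 had one of 2.76 (standard error 0.29, adjusted p = 3.09e-05). The S100a8 probe set is of the type that may detect more than 1 transcript.

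Hp encodes haptoglobin, which captures free haemoglobin and is stored in granules of maturing neutrophils. It measured 75.1, 402 and 982 in deficient cells, against 30, 83.8 and 200 in proficient cells, where 30 is the floor. The ratios were at least 2.50 in litter 1, 4.80 in litter 2 and 4.91 in litter 3. Its log2 difference came to 1.62 (standard error 0.26, limma with litter as a block, adjusted p = 0.00234).

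The 2 matrix metalloproteinases stood apart from the other members. Mmp8, neutrophil collagenase, was at the floor of 30 on all 6 arrays and was not tested. Mmp9, the gelatinase of tertiary granules, measured 50.1, 51.1 and 62.1 in deficient cells, against 30, 35.9 and 30 in proficient cells. It was the only tested member whose groups did not overlap, as was the case, with deficient higher, for 2.30% of the probe sets tested, and its mean in proficient cells lay under the filter. The difference was small (log2 difference 0.44, standard error 0.17) and did not pass (limma with litter as a block, adjusted p = 0.289). The other Mmp9 probe set was at the floor on all 6 arrays.

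**Figure D2:**
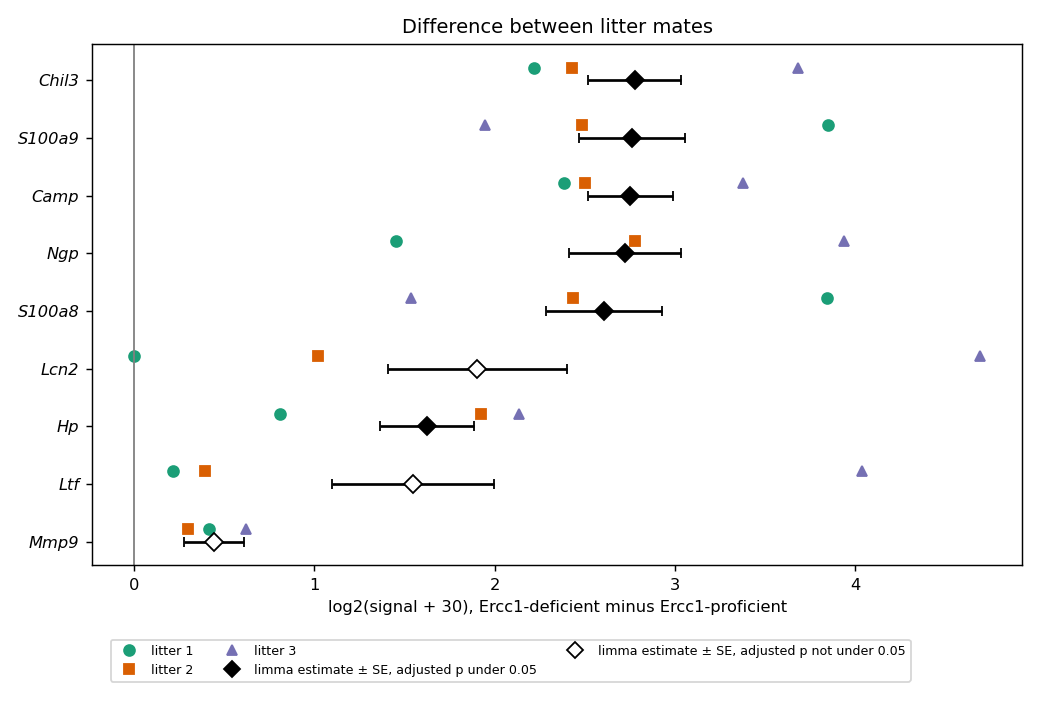
Difference in log2(signal + 30) between deficient and proficient litter mates for the 9 tested members (coloured points, 1 a litter) and the limma estimate with its standard error (diamonds, filled where the adjusted p was under 0.05). S100a8 and S100a9 have their largest difference in litter 1, and Camp, Ngp, Chil3, Lcn2, Ltf and Hp in litter 3, where Chil3, Lcn2, Ltf and Hp had proficient arrays at the floor of 30 in other litters.

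The pair differences themselves give a plainer view of the error. Their SD over the 3 litters (n = 3) was 0.54 for Camp, 0.79 for Chil3, 0.98 for S100a9, 1.16 for S100a8 and 1.24 for Ngp, each smaller than the log2 difference. For Ltf and Lcn2 it was 2.16 and 2.47, larger than the difference. The standard errors from limma are smaller than these SDs imply because limma moderates each variance towards that of all probe sets. An exact sign permutation test over 3 litters cannot give a two-sided p below 0.25.

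The members also differed between litters within a group. The proficient array of litter 3 was +/d and the others were +/+, so litter and allele cannot be told apart there. Of the 9 tested members, 8 had a litter effect in the moderated F test of limma at an adjusted p under 0.05, against 26.9% of all probe sets tested; Mmp9 did not. In deficient cells, all 9 were highest in litter 3, as were 8 of 9 in proficient cells. Within deficient cells, litter 3 exceeded litter 1 by 27.6-fold for Camp, 62.6-fold for Ngp and 8.54-fold for S100a8. Within proficient cells the same ratio was 20.8 for Camp, 15.3 for Ngp and 48.7 for S100a8. In 8 of the 9, the proficient array of litter 3 was above the deficient array of litter 1. The share of all probe sets with these orders of arrays was not counted, so these counts stand without a background.

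Some technical measures moved with litter and genotype as well. The mean log2 signal of the 18S ribosomal RNA controls was 7.26, 10.39 and 11.80 in deficient cells of litters 1, 2 and 3, against 7.21, 9.51 and 11.15 in proficient cells, in the litter order of Camp and Ngp. The bioB spike-ins were higher in the deficient array of each litter, at 10.90, 10.05 and 9.93 in deficient arrays against 9.66, 9.99 and 9.77 in proficient arrays. The 3′ minus 5′ log2 difference of Actb was 4.97, 4.27 and 3.30 in deficient cells, against 4.05, 4.43 and 3.70 in proficient cells. That of Gapdh was 4.71, 2.43 and 2.30 in deficient cells, against 3.64, 2.99 and 2.73 in proficient cells. The part of these measures, of the age of litter 1 and of the +/d control of litter 3 in the members' differences was not tested.

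Primary granule genes come before the secondary ones in maturation, and the genes listed under them were also higher. Not every gene of that list encodes a granule protein, and Ms4a3 does not. Of 12 listed genes, 11 had a probe set. All 11 were tested and had a positive difference, against 46.0% of all probe sets tested, with a median log2 difference of 0.90. With litter as a block 4 of them rose, where 0.293% of all probe sets tested were called higher. These were Ms4a3 (log2 difference 1.84), an inhibitor of the cell cycle in myeloid cells, the proteases Ctsg (1.72) and Prtn3 (1.24), and the cathepsin inhibitor Cst7 (1.20). Ms4a3 measured 1692, 6842 and 6311 in deficient cells, against 201, 2786 and 2487 in proficient cells. Mpo, myeloperoxidase, had a mean of 12180 ± 3538 in deficient cells, against 6902 ± 3547 in proficient cells (SD, n = 3 each; limma with litter as a block, adjusted p = 0.141).

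The litters were ordered differently in the primary granule list. In deficient cells, 7 of its 11 genes were highest in litter 2 and 3 in litter 3, whereas all 9 tested members were highest in litter 3. In proficient cells, 7 of 11 were again highest in litter 2, against 1 of 9 members. Mpo measured 8297, 15220 and 13023 in deficient cells of litters 1, 2 and 3, against 2807, 9020 and 8878 in proficient cells. This difference between the lists is given as counts and was not tested.

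**Figure D3:**
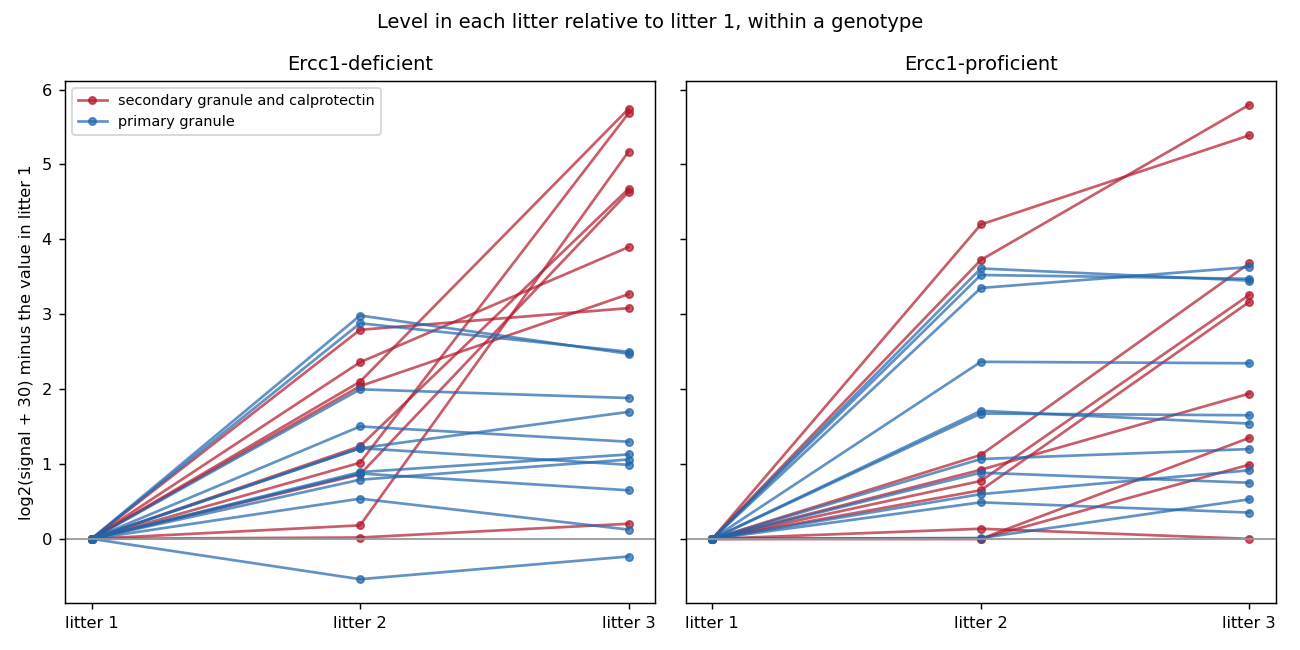
Change in log2(signal + 30) from litter 1 within Ercc1-deficient arrays (left) and Ercc1-proficient arrays (right), 1 line a gene. Red lines are the members above the floor on any array, and blue lines are the genes of the primary granule list. Most red lines climb again between litters 2 and 3, while most blue lines are level there.

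Other granule and secretory genes of neutrophils were examined next. Of 29 listed genes, 25 had a probe set and 20 were tested, of which 2 rose. Of these 20, 5 passed the filter only through the deficient arrays (Cd177, Pglyrp1, Itgb2l, Olfm4 and Lrg1) and 1 only through the proficient arrays, so that their sign was fixed. The other 14 had a positive difference, against 46.0% of all probe sets tested, with a median log2 difference of 0.58. Wfdc21, which encodes a secreted WAP-domain protein, measured 214, 784 and 2360 in deficient cells, against 30, 204 and 215 in proficient cells (log2 difference 2.37, standard error 0.26, limma with litter as a block, adjusted p = 4.37e-05). It held place 6 by size, between S100a8 and Lcn2. Cybb, the catalytic subunit of the phagocyte NADPH oxidase and a membrane protein of secondary granules, measured 133, 373 and 1789 in deficient cells, against 61.0, 153 and 256 in proficient cells (log2 difference 1.55, limma with litter as a block, adjusted p = 0.00789). Ifitm6 had a log2 difference of 1.36 and did not pass (0.14 as the adjusted p in limma).

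Among relatives of the members by gene family, 1 gene rose. Of 7 tested S100 genes, 7 had a positive difference, against 46.0% of all probe sets tested, with a median of 0.19. S100a6 alone rose, at 333 ± 87.7 in deficient cells, against 149 ± 88.0 in proficient cells (SD, n = 3 each, limma with litter as a block, adjusted p = 0.0241). S100a4 and S100a16 had log2 differences of 0.72 and 0.58. Another list held relatives of cathelicidins, lipocalins, chitinase-like proteins, transferrins and haptoglobin. It also held Tfrc, the transferrin receptor, which is not of the transferrin family. Of its 8 tested genes, 0 passed the test. Of these 8, 2 (Lcn3 and Chil1) had passed the filter only through the deficient arrays and 2 only through the proficient arrays. Of the other 4, Tfrc among them, 3 had a positive difference. In that list Chil1, another chitinase-like gene, measured 40.2, 67.7 and 150 in deficient cells, against 30, 30 and 33.1 in proficient cells (limma with litter as a block, adjusted p = 0.0972), and Cstb and Tfrc had log2 differences of 0.26 and 0.19. Of 14 other matrix metalloproteinases with a probe set, 6 were at the floor on all arrays and 4 were tested, with a median of -0.06 and 0 called; Mmp14 had a log2 difference of 0.29.

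Regulators of granule genes showed no shared direction. Of 18 tested transcription regulators, 10 had a positive difference, with a median of 0.05, and 0 passed. Cebpd and Gfi1, which act in granulocyte differentiation, had log2 differences of 0.72 each and were above the proficient litter mate in all 3 litters, and Egr1 had one of -1.02. Gfi1b, Hoxa10 and Trib2, at -0.71, -0.61 and -0.47, were below the proficient litter mate in all 3 litters. Cebpe had no probe set with a symbol of its own and is not analysed here. Of 10 tested cytokine receptors and signals of granulopoiesis, 6 had a positive difference, with a median of 0.02, and 0 passed. Csf3r, the receptor for G-CSF, had a mean of 177 ± 38.9 in deficient cells, against 246 ± 46.0 in proficient cells (SD, n = 3 each), lower than its litter mate 3 times (limma with litter as a block, adjusted p = 0.513). Il1r1, Csf2rb and Il6st had log2 differences of -0.70, 0.65 and -0.49.

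Receptors and inhibitors of the members' products were likewise not called. Of 22 with a probe set, 14 were tested and 0 passed. Without 2 that passed the filter only through the deficient arrays (Lrp2 and Fpr2) and 2 only through the proficient arrays, 6 of 10 had a positive difference, with a median of 0.08. Tlr4, a receptor for calprotectin, measured 83.5, 49.9 and 178 in deficient cells, against 231, 53.7 and 86.8 in proficient cells. Ager, another calprotectin receptor, and Timp1, an inhibitor of Mmp9, were at the floor on all 6 arrays. P2rx7 and Timp2 had log2 differences of 0.29 and -0.27. Fpr2, a receptor for the cathelicidin peptide, was at 332 in the deficient array of litter 3 and at the floor on the other 5.

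**Figure D4:**
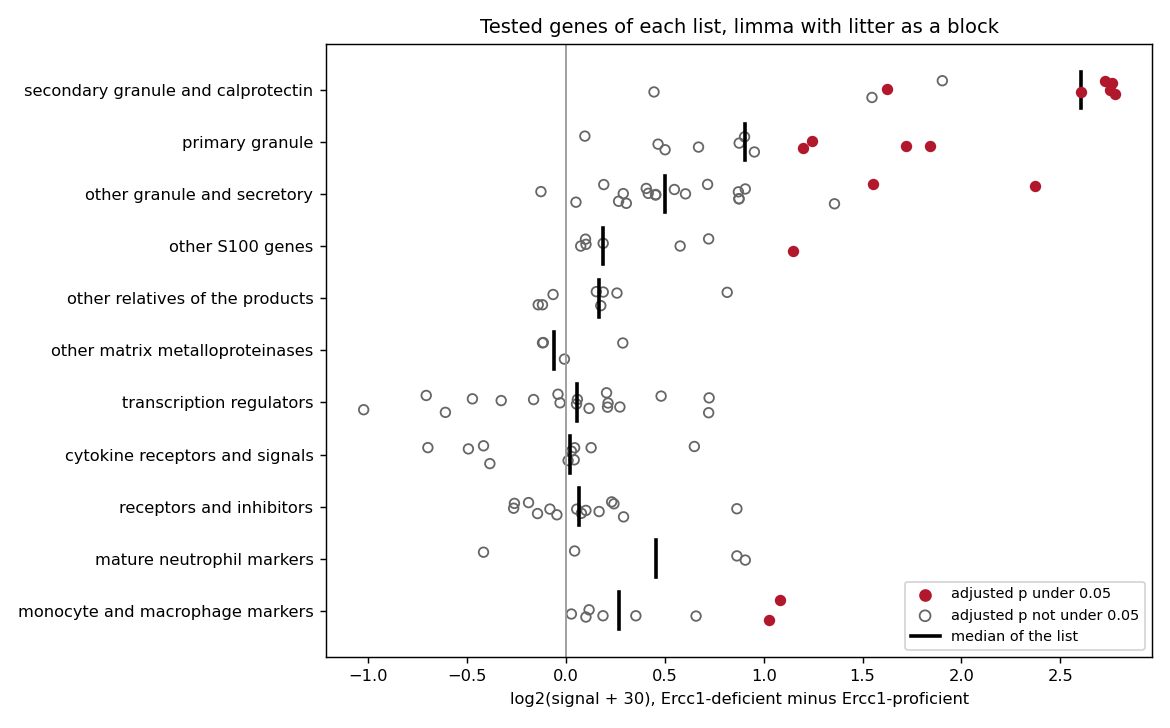
Difference in log2(signal + 30), deficient minus proficient, for each tested gene of 11 gene lists (points, red where the adjusted p was under 0.05 with litter as a block) and the median of each list (bars), with genes that passed the filter through 1 group only included. The members lie farthest to the right with a median of 2.60, followed by the primary granule list at 0.90.

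Markers of other cells that a sort could hold were read on the same arrays. Of 7 mature neutrophil markers with a probe set, 4 were tested and 0 passed. Of these 4, Cd177 and Fpr2 had passed the filter only through 1 deficient array, and 1 of the other 2 had a positive difference. Their summed signal ran between 321 and 1045 in deficient and between 386 and 471 in proficient cells, and Itgam and Cxcr2 were at the floor on all 6 arrays. Cd177, a surface protein of mature neutrophils, was at 365 in the deficient array of litter 3 and at the floor on the other 5, as Fpr2 was. That array was also the one with the highest signals of all 9 tested members. In litters 1 and 2, Cd177 and Fpr2 were at the floor in both litter mates. There the ratio of Camp was 8.06 and 6.71, and that of S100a9 was 18.2 and 5.67. The ratio of Ltf was at least 1.32 and at least 1.63. For Lcn2, both litter mates of litter 1 were at the floor, and the ratio was at least 3.05 in litter 2. The part of mature neutrophil transcripts in the members' differences was not tested.

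Of 11 monocyte and macrophage markers with a probe set, 8 were tested. All 8 had a positive difference, against 46.0% of all probe sets tested, with a median of 0.27. F13a1 and Ccr2 rose (limma with litter as a block, adjusted p = 0.0236 for F13a1 and 0.031 for Ccr2). F13a1, a coagulation factor subunit of monocytes, measured 338, 1532 and 1311 in deficient cells, against 161, 493 and 779 in proficient cells, and Ms4a6c had a log2 difference of 0.66. The summed signal of the list ran between 1141 and 3082 in deficient and between 717 and 2231 in proficient cells, and Cd14 and C1qa were at the floor on all 6 arrays. The part of monocyte transcripts in the difference of S100a8 and S100a9, which monocytes also express, was not tested.

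The remaining marker lists had 0 genes that rose. Basophil and mast cell markers had a positive difference in 4 of 4 tested genes (median 0.45), against 46.0% of all probe sets tested, with Cpa3 at 0.84. They summed to between 918 and 1225 in deficient and between 422 and 1167 in proficient cells. Of 4 tested T and NK cell markers, Cd3d, Cd3e and Cd8a passed the filter only through the deficient arrays and Nkg7 had a difference of 0.90. The list summed to between 814 and 1450 in deficient and between 402 and 877 in proficient cells; Cd3g and Cd4 were at the floor on all arrays. B and plasma cell markers had a positive difference in 1 of 4 (median -0.03), summing to between 2103 and 10339 in deficient and between 2713 and 11802 in proficient cells, with Cd79a at the floor. Erythroid markers had one in 0 of 3 (median -0.14), summing to between 321 and 647 in deficient and between 201 and 977 in proficient cells, with Alas2 and Hba-a1 at the floor. Megakaryocyte markers had one in 2 of 5 (median -0.04), with Pf4 at 0.84, and summed to between 1124 and 2475 in deficient and between 471 and 1862 in proficient cells. In the lineage list, Cd3e and Cd8a, at 0.33 and 0.37, passed the filter only through the deficient arrays. Ptprcap, which encodes a CD45-associated protein and not an antigen of lineage depletion, was at -0.42, and Itgam and Cd4 were at the floor on all arrays. The list summed to between 314 and 650 in deficient and between 308 and 631 in proficient cells. Of the LSK markers, 1 of 4 had a positive difference (median -0.52), Flt3 fell (log2 difference -1.05, limma with litter as a block, adjusted p = 0.0379), and the list summed to between 891 and 1751 in deficient and between 1572 and 2053 in proficient cells.

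The members varied together over the arrays. Across the 6 arrays, which form 3 litter pairs, the log2 signal of each of the 9 tested members had a Pearson correlation with the mean of the other members of between 0.72 (Mmp9) and 0.99 (Camp). The 8 other genes whose brightest probe set followed the members' mean most closely were Utp18, Far2, Aurka, Dstn, Ssr1, Cybb, Gda and Apeh, with correlations between 0.984 and 0.997. Dstn, an actin-depolymerising protein, measured 404, 588 and 1289 in deficient cells, against 192, 328 and 468 in proficient cells, and rose (limma with the litter block, adjusted p = 0.0236). Gda, guanine deaminase, measured 191, 308 and 857 in deficient cells, against 121, 158 and 253 in proficient cells. These correlations describe 6 points that share litters, and the 8 genes were chosen for them. The share of all probe sets that follow the members this closely was not counted, so the likeness cannot be called particular to the members.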

How the data were processed

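The authors deposited MAS5 signal intensity values on a linear scale, as the submitters' processing notes say without a version. They show a floor of 30 and a scaling per array (mean without the extreme 2% at each end between 109 and 111). Neither step is described in the sources used here. Signals were transformed as log2(signal + 30), so folds of weak genes are understated. Leaving out 64 control probe sets, 22519 probe sets were tested in limma 3.58.1 (R 4.3.3; lmFit, eBayes with a variance trend) with genotype and litter as terms and Benjamini-Hochberg adjustment over all of them at 0.05. The labels name arrays of equal number as litter mates, and their deviations from group means correlated with r = 0.77, 0.67 and 0.46 in litters 1, 2 and 3. Whether a sample came from 1 mouse is not stated in the sources used here, and the p-values therefore describe only the spread among these 6 samples, which may be technical. No 2 arrays held identical values (0 pairs). Where a proficient array was at the floor, its ratio is a lower bound against that floor.

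Symbols came from the platform annotation of 2016, and all 10 matched a RefSeq table through Entrez identifiers. The members, the lists and the litter term were chosen with earlier results of these data known. Named were all members, Ercc1, list genes that passed or led their list by size (up to 3 a list) and the 8 genes most like the members; a few more were named for their role, after their values were seen. Alternatives are listed at the end.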

Additional observations from a re-analysis of the deposited data

How the results depend on the processing

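All 9 tested members, of which the filter fixed the sign of Mmp9, kept a positive log2 difference under every alternative in which they were tested. The count of members called higher, 6, stayed between 6 and 8 with quantile normalization, median centring, pseudocounts of 0 and 100, a stricter filter and no variance trend. The dimmest tested probe set of a gene was the brightest one for every member, so that alternative changed nothing by construction. It was 0 with no replicate block, 0 with litter as a random replicate block and 0 with no filter. Leaving out 1 litter gave between 0 and 3 members, between 0 and 5 probe sets in all and between 0 and 5 members with a litter effect. Over all probe sets, where 177 were called, limma called 0 with no replicate block, 26 with the random block, 0 with no filter and 97 with no variance trend. It called 137 with quantile normalization, 262 with median centring, 204 and 149 with pseudocounts of 0 and 100, and 212 of 11260 with the stricter filter. The members with a litter effect, 8, were 0 with no filter.

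Further alternatives were chosen after seeing the data. A filter that kept the 27991 probe sets above the floor on at least 1 array gave 0 members, 0 probe sets and 3 members with a litter effect. Setting the filter again on the 4 arrays left without a litter gave 8, 8 and 6 members called without litters 1, 2 and 3. Over all probe sets it gave 281, 325 and 207 without litters 1, 2 and 3, and 5 members had a litter effect without litter 3. In all 3 of these fits limma gave every probe set of like level the same variance. In the fits with 0 calls and no filter, the prior degrees of freedom were 0.798, against 19.1, and 17046 probe sets at the floor on all arrays entered. The cause of the other changes was not tested. The floor limits what can be said of Mmp8, Mmp9, Ltf and Lcn2.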
